A study of Homo sapiens with 12 samples.

Results

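The IFIT genes encode interferon-induced proteins with tetratricopeptide repeats. The members described here are IFIT1, IFIT2, IFIT3 and IFIT5, which were matched by exact symbol and are 4 of the 58288 genes counted. All 4 passed the filter on low counts. RNA was sequenced from MV3, an established human melanoma line that came from a lymph node metastasis. The cells were grown with 10% serum and then spent 3 h in RPMI with 1% serum. They were next cultured for 24 h in 1 of 4 media, with 3 libraries per medium. M1 medium came from THP-1 monocytic leukemia cells differentiated to macrophages with the phorbol ester PMA and polarized with LPS and IFNγ. M2 medium came from such macrophages polarized with IL4 and IL13. M0 medium came from PMA-differentiated macrophages that were not polarized further. Ctrl was fresh RPMI that no cells had conditioned, so every comparison with Ctrl includes conditioning itself. All groups were the same line, and nothing states that the replicates were separate cultures, so p-values measure the spread between these libraries, which may be technical. Whether LPS, IFNγ or the other agents were carried over in the media was not measured.

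IFIT proteins bind RNA and belong to the antiviral program of interferon-stimulated genes. IFIT1 binds capped RNA that lacks methylation of the first ribose, and it competes with the translation factor that recognizes caps. IFIT3 binds IFIT1 and stabilizes it, IFIT2 joins the same complexes and has been linked to apoptosis, and IFIT5 binds RNA with an exposed triphosphate as a monomer. Their transcription is driven by ISGF3, a complex that contains STAT2 and IRF9 and binds the interferon-stimulated response element (ISRE). IRF3 can drive some of them directly after RNA or DNA sensing, and IRF1 binds a related element.

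The 4 genes lie side by side on the plus strand of chromosome 10 (GRCh38, GENCODE release 29). IFIT2 (ENSG00000119922.9) spans chr10:89283694-89309276, IFIT3 (ENSG00000119917.13) chr10:89327894-89340971, IFIT1 (ENSG00000185745.9) chr10:89392546-89406486 and IFIT5 (ENSG00000152778.8) chr10:89414586-89421001, so the members fill 137.3 kb. IFIT1B, a further family gene, lies between IFIT3 and IFIT1, and the pseudogene IFIT6P had 0 reads in every library. The members share no 50-base stretch of transcript with each other, which is the length of the reads. Of the distinct 50-base stretches, 0 of 3966 in IFIT5, 47 of 4612 in IFIT1, 94 of 2584 in IFIT3 and 324 of 4096 in IFIT2 also occur in transcripts of other genes.

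Promoter sequences are shown because the ISRE is the element through which the family is known to be switched on. Whether it bears on how far each member rose was not tested. RefSeq windows (GRCh38.p14) of 250 bases before and 50 bases after the start were matched by symbol for 3 of the 4 members, IFIT1, IFIT3 and IFIT5, and IFIT3 has an outer and an inner start. Capitals mark each match to the ISRE core (GAAA, any 2 bases, GAAA), searched on both strands. Every match lay on the minus strand, so that the plus strand printed here shows its reverse complement.
IFIT3 outer start, chr10:89327747-89328046, plus strand: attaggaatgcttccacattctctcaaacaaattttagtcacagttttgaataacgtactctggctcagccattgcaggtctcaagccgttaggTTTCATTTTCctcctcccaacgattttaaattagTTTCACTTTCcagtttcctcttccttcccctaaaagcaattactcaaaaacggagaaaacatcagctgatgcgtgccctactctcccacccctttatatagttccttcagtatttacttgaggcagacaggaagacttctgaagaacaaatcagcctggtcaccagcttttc
IFIT3 inner start, chr10:89332279-89332578, plus strand: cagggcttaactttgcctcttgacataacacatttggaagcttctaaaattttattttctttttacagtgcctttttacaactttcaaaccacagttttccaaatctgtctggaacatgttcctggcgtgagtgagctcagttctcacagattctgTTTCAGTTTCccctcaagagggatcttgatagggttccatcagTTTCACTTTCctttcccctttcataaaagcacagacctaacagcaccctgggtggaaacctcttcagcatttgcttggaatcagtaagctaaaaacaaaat
IFIT1, chr10:89392373-89392672, plus strand: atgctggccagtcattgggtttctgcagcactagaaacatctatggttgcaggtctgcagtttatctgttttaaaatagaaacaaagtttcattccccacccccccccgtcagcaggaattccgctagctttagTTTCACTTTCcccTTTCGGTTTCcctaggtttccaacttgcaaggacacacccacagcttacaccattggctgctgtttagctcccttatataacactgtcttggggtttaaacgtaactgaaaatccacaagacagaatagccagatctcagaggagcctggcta
IFIT5, chr10:89414318-89414617, plus strand: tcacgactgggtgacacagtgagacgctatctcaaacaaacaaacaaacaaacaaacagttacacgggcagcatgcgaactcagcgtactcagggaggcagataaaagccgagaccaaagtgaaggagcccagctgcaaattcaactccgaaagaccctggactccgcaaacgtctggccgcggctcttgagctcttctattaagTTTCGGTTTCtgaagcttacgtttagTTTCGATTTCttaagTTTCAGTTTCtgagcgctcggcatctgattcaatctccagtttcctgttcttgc

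Each of these windows held the ISRE core, which occurs in 3.57% of all 35116 promoter windows (1255 windows). The IFIT1 window held 2 matches, beginning 116 and 103 bases before the start. The IFIT3 windows held 2 matches each, at 156 and 122 bases before the outer start and at 94 and 51 bases before the inner start. The IFIT5 window held 3, beginning 45, 19 and 4 bases before the start, and the last of them runs across the start. The letters tttcactttc occur in both IFIT3 windows and in that of IFIT1, and tttcggtttc in those of IFIT1 and IFIT5. The window of IFIT1B held 0 matches to the core. No window of IFIT1, IFIT3 or IFIT5 held the GAS letters TTCNNNGAA on either strand, which occur in 7.66% of all windows. A match is a run of letters and not a measured binding site.

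M1 medium raised all 4 members above M0 medium, the comparison of polarized with unpolarized macrophages. IFIT1 had 128, 117 and 128 CPM (the TMM-normalised read count, scaled to a common library size) in M1 libraries, against 3.31, 2.56 and 3.47 CPM in M0 libraries. The lowest M1 library stood far above the highest M0 library. The fold was 39.4 (log2 5.30 ± 0.14 SE, adjusted p = 6.85e-14 by edgeR's quasi-likelihood test), which placed IFIT1 at rank 27 of 14088 genes by log2 fold change. IFIT3, the partner that stabilizes IFIT1, had 247, 252 and 238 CPM in M1, against 11.9, 10.1 and 9.53 CPM in M0. Its groups did not overlap either, and it rose 23.3-fold (log2 4.54 ± 0.10 SE, adjusted p = 2.15e-14, rank 41).

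IFIT2 had 44.7, 42.4 and 44.6 CPM in M1 libraries, against 12.3, 11.5 and 9.29 CPM in M0 libraries. It rose 3.98-fold (log2 1.99 ± 0.12 SE, adjusted p = 3.05e-10 by edgeR, rank 239). IFIT5, the monomeric member, had 109.9, 117 and 112 CPM in M1, against 51.5, 48.8 and 47.9 CPM in M0. The groups did not overlap, and its rise of 2.29-fold was the smallest of the family (log2 1.19 ± 0.04 SE, adjusted p = 6.45e-10, rank 643). Of all tested genes, 52.2% were called in M1 against M0 at an adjusted p of 0.05, 25.5% higher and 26.7% lower. The median log2 fold change of the 4 members was 3.27, beside -0.01 over all tested genes. In bulk RNA, a rise in every cell and a larger rise in some of the cells cannot be told apart.

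**Figure D1:**
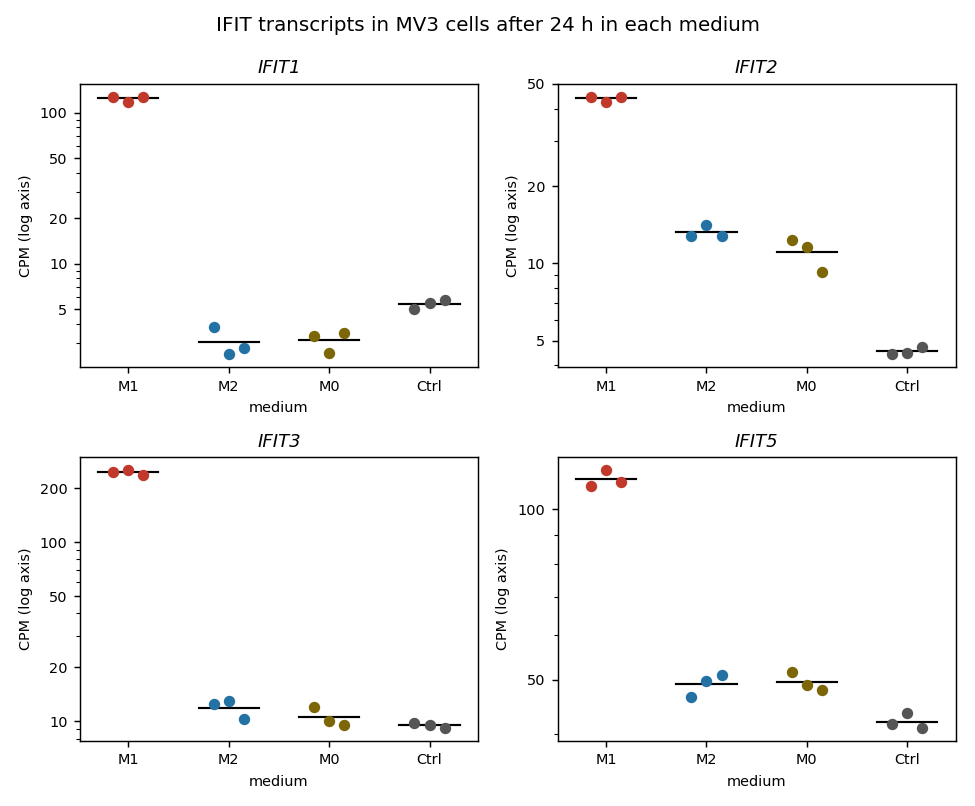
CPM of each IFIT member in every library (points) with the group mean (line) on log axes, by medium. In all 4 panels the M1 libraries stand above every other library, while IFIT1 in M2 and M0 lies below Ctrl and IFIT2 in M2 and M0 lies above it.

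Against M2 medium the members also rose in M1, and 4 of 4 were called higher (32.5% of all tested genes were called, 15.9% higher and 16.6% lower). IFIT1 averaged 124 ± 6.16 CPM in M1 and 3.02 ± 0.681 CPM in M2 (SD, n = 3 each), a log2 difference of 5.34 ± 0.18 SE (adjusted p = 5.90e-14 by edgeR). IFIT3 averaged 246 ± 7.14 CPM in M1 and 11.9 ± 1.46 CPM in M2, a log2 difference of 4.36 ± 0.11 SE. IFIT2 averaged 43.9 ± 1.31 CPM in M1 and 13.2 ± 0.790 CPM in M2, and IFIT5 113 ± 3.78 CPM in M1 and 49.1 ± 2.29 CPM in M2. IFIT2 was thus 3.32-fold and IFIT5 2.30-fold higher in M1. The comparison of M1 with M0 uses the same M1 libraries, so the likeness of both sets of values is not separate evidence. In the joint test over M1, M2 and M0, all 4 members differed (adjusted p between 1.53e-15 for IFIT3 and 1.57e-10 for IFIT5 by edgeR), as did 56.6% of all tested genes.

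IL4 and IL13 polarization left no called member, since 0 of 4 passed in M2 against M0, where 25.2% of all tested genes were called, 12.5% higher and 12.7% lower. That background of 3553 genes fell to 1595 when M0 replicate 3 was dropped, 1905 when M2 replicate 3 was, 1933 when M2 replicate 2 was, and 520 when M0 replicate 3 was dropped together with M2 replicate 2. No member passed by DESeq2 or limma either, where IFIT2 came nearest, with an adjusted p of 0.0602 by DESeq2 and 0.0694 by limma. Before adjustment, the edgeR p of IFIT2 was 0.0179. The share of all tested genes at these settings is not given, so these values are not read against a background. IFIT2 had 12.8, 14.2 and 12.8 CPM in M2 libraries, against 12.3, 11.5 and 9.29 CPM in M0 libraries. Its groups did not overlap, but by edgeR its log2 difference of 0.26 ± 0.13 SE had an adjusted p of 0.0628. Without M0 replicate 1 it passed, at a log2 difference of 0.36 and an adjusted p of 0.0347. For IFIT1 the log2 difference was -0.04 ± 0.22 SE (adjusted p = 0.888), for IFIT3 0.18 ± 0.14 SE (adjusted p = 0.197) and for IFIT5 -0.01 ± 0.05 SE (adjusted p = 0.917). For these 3 members the M2 and M0 libraries overlapped. With 3 libraries a group, the test does not show that the media act alike.

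Medium from M0 macrophages moved the members in different directions relative to fresh medium. IFIT1 had 3.31, 2.56 and 3.47 CPM in M0 libraries, against 5.00, 5.49 and 5.78 CPM in Ctrl libraries, and every M0 library lay below every Ctrl library. It fell by 0.78 ± 0.15 SE on the log2 scale (adjusted p = 2.18e-04 by edgeR). IFIT2 went the other way, with 12.3, 11.5 and 9.29 CPM in M0, against 4.43, 4.45 and 4.72 CPM in Ctrl. It rose 2.43-fold (log2 1.28 ± 0.12 SE, adjusted p = 6.65e-08). IFIT5 averaged 49.4 ± 1.87 CPM in M0 and 42.1 ± 1.33 CPM in Ctrl, a small rise (log2 0.23 ± 0.04 SE, adjusted p = 0.00455). IFIT3 averaged 10.5 ± 1.27 CPM in M0 and 9.49 ± 0.272 CPM in Ctrl, its libraries overlapped, and the difference did not pass (log2 0.15 ± 0.10 SE, adjusted p = 0.204). Thus 2 of 4 members were called higher, beside 31.1% of all tested genes, and 1 of 4 lower, beside 30.6% (61.7% in either direction).

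M2 medium showed a like set of values against fresh medium, and both comparisons share the Ctrl libraries. IFIT1 averaged 3.02 ± 0.681 CPM in M2 and 5.43 ± 0.396 CPM in Ctrl, and fell by 0.82 ± 0.19 SE on the log2 scale (adjusted p = 9.56e-05 by edgeR). IFIT2 averaged 13.2 ± 0.790 CPM in M2 and 4.54 ± 0.162 CPM in Ctrl, a 2.92-fold rise (log2 1.55 ± 0.06 SE, adjusted p = 5.11e-09). IFIT3 had 12.6, 12.9 and 10.2 CPM in M2 libraries, against 9.73, 9.55 and 9.19 CPM in Ctrl libraries. These did not overlap and IFIT3 passed here (log2 0.33 ± 0.11 SE, adjusted p = 0.00732). IFIT5 averaged 49.1 ± 2.29 CPM in M2 and 42.1 ± 1.33 CPM in Ctrl (log2 0.22 ± 0.05 SE, adjusted p = 0.00541), but it did not pass without the filter on low counts (adjusted p = 0.0822). So 3 of 4 members were called higher (34.1% of all tested genes) and 1 of 4 lower (32.4%, and 66.5% in either direction).

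M1 medium against fresh medium adds conditioning to polarization, and there all 4 members were called higher, beside 35.2% of all tested genes (35.0% were lower, 70.2% in either direction). IFIT3 rose 25.9-fold (log2 4.69 ± 0.03 SE, adjusted p = 4.09e-15 by edgeR) and IFIT1 rose 23.0-fold (log2 4.52 ± 0.07 SE, adjusted p = 5.34e-14). IFIT2, which M0 and M2 media had also raised, stood at a fold of 9.68 (log2 3.27 ± 0.04 SE), and IFIT5 at 2.68 (log2 1.42 ± 0.04 SE). IFIT1 had the largest fold of the family against M0 and against M2, and IFIT3 had the largest against Ctrl.

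**Figure D2:**
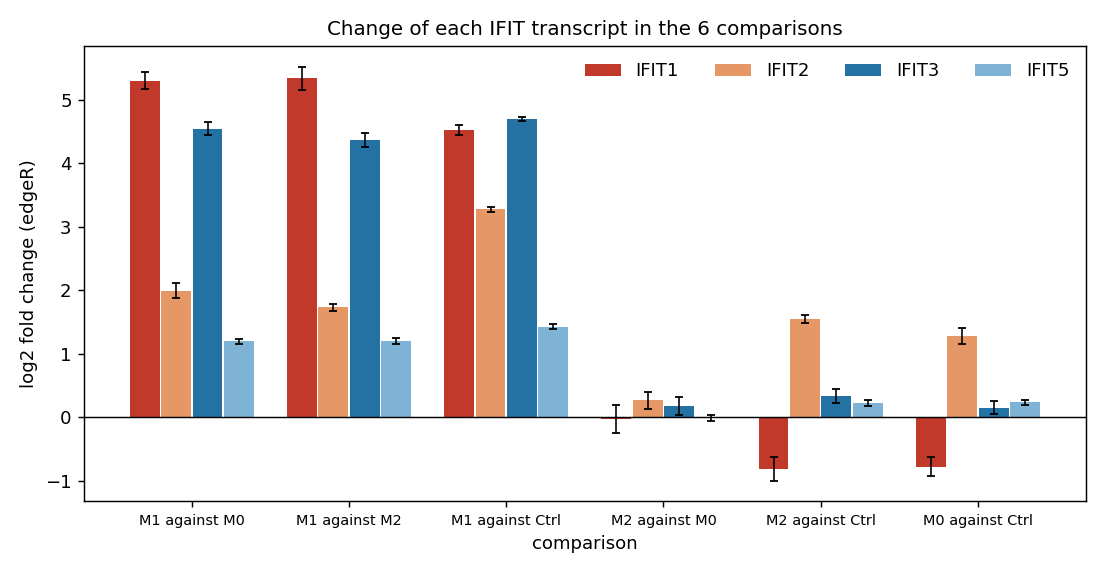
Log2 fold change of IFIT1, IFIT2, IFIT3 and IFIT5 in the 6 comparisons, from the edgeR fit, with error bars of ± 1 SE from the spread of the libraries' log2 CPM. All bars are positive where M1 is on top, from 1.19 for IFIT5 to 5.34 for IFIT1, whereas M2 and M0 against Ctrl show IFIT1 below 0 and IFIT2 above 1.

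The order of the media therefore differed from member to member. For IFIT1 the M1 libraries were highest, Ctrl came next, and M0 and M2 were lowest and overlapped each other. For IFIT2 the order was M1, M2, M0 and Ctrl with no overlap between neighbours, but M2 against M0 did not pass (adjusted p = 0.0628 by edgeR). For IFIT3 M1 stood clear of all others, while M2 overlapped M0 and M0 overlapped Ctrl. For IFIT5 M1 was highest, M0 and M2 overlapped, and Ctrl was lowest.

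Levels can be compared between the members only per kilobase of exon (RPKM). Summed over the 4 genes, IFIT RNA reached 158.8 ± 2.07 RPKM in M1, 20.6 ± 0.568 in M2, 19.7 ± 1.28 in M0 and 16.4 ± 0.340 in Ctrl (SD, n = 3 each). In M1 libraries IFIT3 made up 58.6 ± 0.966% of that sum, IFIT5 17.7 ± 0.540%, IFIT1 17.0 ± 0.983% and IFIT2 6.74 ± 0.262%. In the other media IFIT5 led instead, with 59.3 ± 2.90% in M2, 62.7 ± 1.70% in M0 and 64.1 ± 0.691% in Ctrl. The share of IFIT3 outside M1 was 21.9 ± 2.39% in M2, 20.2 ± 1.11% in M0 and 21.95 ± 0.637% in Ctrl. The lowest rank changed as well. IFIT2 was lowest in 3 of 3 M1 libraries, and IFIT1 in 3 of 3 M2 and 3 of 3 M0 libraries, at 3.19 ± 0.775% of the sum in M2 and 3.44 ± 0.593% in M0. In Ctrl IFIT1 held 7.19 ± 0.556% and IFIT2 6.76 ± 0.343%. IFIT2 was lowest within every Ctrl library, but only narrowly in replicate 1, with 6.68% for IFIT1 and 6.65% for IFIT2. Such ranks between genes rest on the exonic lengths used.

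**Figure D3:**
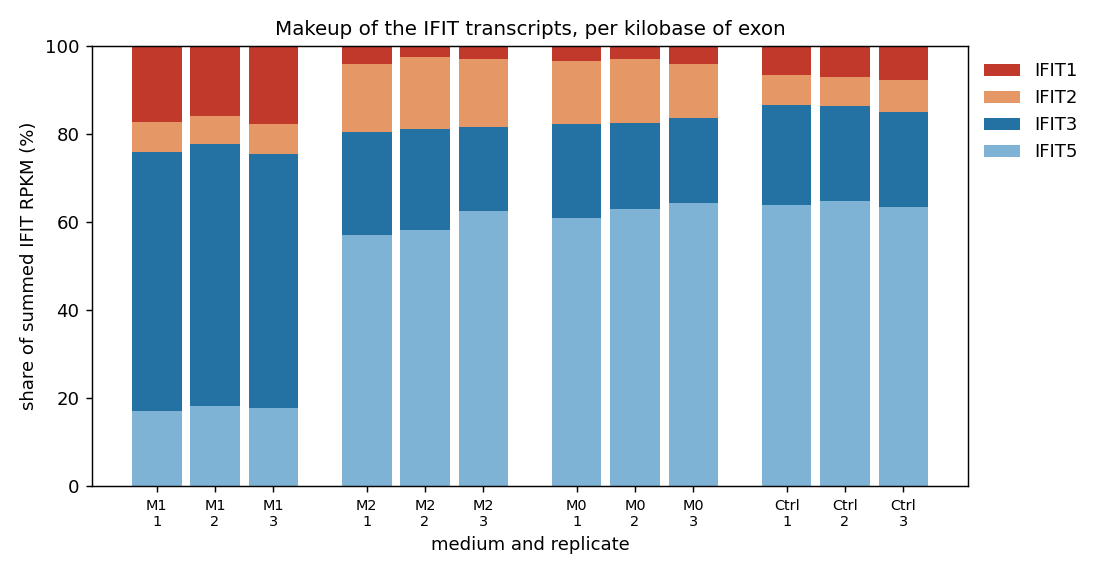
Share of each IFIT member in the summed IFIT RPKM of every library (stacked bars, in percent), by medium and replicate. IFIT3 fills 57.6% to 59.5% of the M1 bars, while IFIT5 fills 57.1% to 64.8% of all other bars.

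Whether the members kept a fixed proportion to each other was tested within libraries, by the log2 ratio of CPM for each of the 6 pairs over the 4 media. Only its differences between media are read, since the ratio itself is not per length. All 6 ratios differed by an exact permutation test over the libraries (369600 arrangements, one-sided on the between-group variance, n = 3 per group), with p adjusted over the 6 pairs from 3.90e-04 for IFIT2/IFIT5 to 0.00649 for IFIT3/IFIT5. The log2 ratio IFIT1/IFIT2 was 1.52, 1.47 and 1.52 in the M1 libraries and averaged -2.13 ± 0.37 in M2, -1.81 ± 0.37 in M0 and 0.25 ± 0.07 in Ctrl. IFIT1 thus lost ground to IFIT2 in M2 and M0 media and gained it in M1 medium. The log2 ratio IFIT1/IFIT3 moved least and was -0.98 ± 0.11 in M1, -1.97 ± 0.32 in M2, -1.74 ± 0.27 in M0 and -0.80 ± 0.14 in Ctrl. The log2 ratio IFIT3/IFIT5 was 1.12 ± 0.04 in M1, -2.04 ± 0.23 in M2, -2.23 ± 0.12 in M0 and -2.14 ± 0.05 in Ctrl. When the M1 libraries were left out, this pair no longer differed (adjusted p = 0.357 by the exact permutation test) and the other 5 pairs still did (adjusted p of 0.0214 to 0.0386, where the smallest unadjusted p the design allows is 0.00357).

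Genes around the cluster were read from the same fit to see what the neighbourhood did. LIPA, the gene of lysosomal acid lipase on the minus strand, spans chr10:89213569-89414557 and so lies across IFIT2, IFIT3, IFIT1B and IFIT1 but ends before IFIT5. Of the 4101 exonic bases of IFIT2, 421 (10.3%) are shared with LIPA or with AL353751.1, while IFIT3, IFIT1 and IFIT5 share 0. At most 200 of the 421 can be shared with LIPA, since LIPA shares 200 exonic bases in all. AL353751.1 had 0 reads in every library. How reads were assigned by strand is not given in the sources used here, so LIPA reads could be part of the IFIT2 count. LIPA had 42.3, 38.0 and 39.2 CPM in M1 libraries and 31.1, 30.0 and 35.9 CPM in M0 libraries (log2 0.30 ± 0.09 SE, adjusted p = 0.00566 by edgeR). In M0 against Ctrl, where IFIT2 rose, LIPA fell to 32.3 ± 3.15 CPM in M0, against 65.2 ± 4.20 CPM in Ctrl (adjusted p = 3.46e-08).

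Of the other protein-coding neighbours, FAS, the death receptor, rose to 1.59 ± 0.144 CPM in M1, against 1.12 ± 0.168 CPM in M0 (log2 0.51 ± 0.14 SE, adjusted p = 0.0387 by edgeR). PANK1, a pantothenate kinase, did not pass (log2 0.39 ± 0.34 SE, adjusted p = 0.124). KIF20B, a mitotic kinesin, fell by 0.67 ± 0.24 SE on the log2 scale (adjusted p = 0.00164). CH25H, SLC16A12, ACTA2 and IFIT1B had too few reads to test. IFIT1B had 2, 2 and 3 reads in M1 libraries, 0 in every M2 and M0 library, and 4, 0 and 0 in Ctrl libraries, and it shares 50-base stretches with IFIT1.

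**Figure D4:**
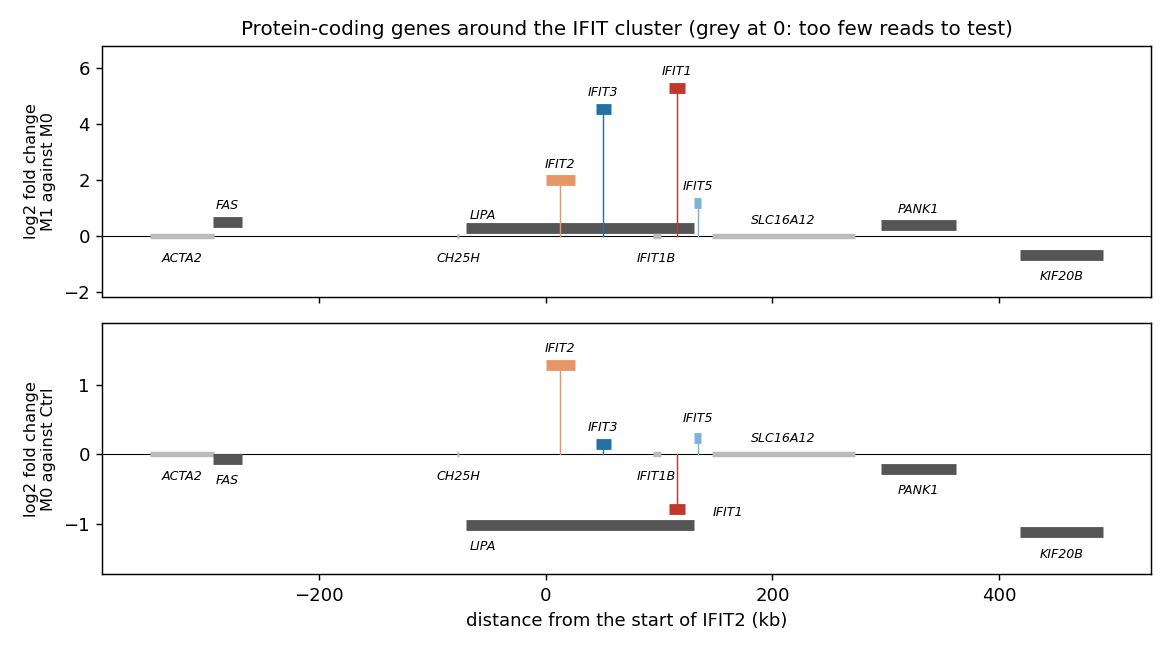
Log2 fold change of the protein-coding genes within 300 kb of the IFIT cluster, placed by distance from the start of IFIT2 in kb, for M1 against M0 (upper panel) and M0 against Ctrl (lower panel). In the upper panel the 4 members lie between 1.19 and 5.30 and their tested neighbours between -0.67 and 0.51, and in the lower panel IFIT2 is at 1.28 and IFIT1 at -0.78.

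Of 13 interferon ligand genes, 12 had too few reads to test, with 0 to 3 reads each over all libraries. IFNB1, interferon beta, had 1 read over the M1 libraries, 1 over M2, 0 over M0 and 0 over Ctrl. IFNG had 0 reads in every library. IFNE, an interferon of epithelia, was the 1 tested ligand and did not pass in M1 against M0 (log2 0.50 ± 0.36 SE, adjusted p = 0.246 by edgeR), with 0.921 ± 0.304 CPM in M1 and 0.645 ± 0.213 CPM in M0. IFNE was called lower than in Ctrl, where it averaged 1.37 ± 0.498 CPM, both in M0 (log2 -1.08 ± 0.40 SE, adjusted p = 0.0102) and in M2 (log2 -1.15 ± 0.34 SE, adjusted p = 0.00542). These are the melanoma cells' transcripts and say nothing of the protein in the media.

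Receptors and kinases of the pathway rose modestly in M1 medium. Of 8 tested, 7 were called higher and 0 lower than in M0 (25.5% and 26.7% of all tested genes), with a median log2 fold change of 0.40. IFNAR2, a chain of the type I interferon receptor, rose most, to 22.3 ± 1.47 CPM in M1, against 7.12 ± 1.25 CPM in M0 (log2 1.65 ± 0.16 SE), but 83.2% of its exonic bases are shared with other annotated genes. TYK2, the kinase bound to the other chain, did not pass, with 48.4 ± 6.23 CPM in M1 and 50.0 ± 2.96 CPM in M0 (adjusted p = 0.717). The median over all tested genes was -0.01.

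The STAT and IRF factors of the ISRE moved with the members in M1. Of 7 tested, 6 were called higher in M1 than in M0 and 0 lower (25.5% and 26.7% of all tested genes), with a median log2 fold change of 2.14. STAT2 had 162, 167 and 152 CPM in M1 libraries and 27.4, 28.2 and 19.5 CPM in M0 libraries (log2 2.68 ± 0.18 SE, adjusted p = 4.38e-11 by edgeR). IRF9 was counted at 91, 52 and 64 reads in M1 libraries and 4, 2 and 4 reads in M0 libraries (log2 3.89, adjusted p = 7.75e-07). Because 48.4% of the exonic bases of IRF9 are shared with AL136295.5 on the same strand, its low counts are uncertain. IRF7, the amplifier of interferon production, averaged 25.5 ± 7.61 CPM in M1 and 3.04 ± 0.412 CPM in M0 (log2 3.08 ± 0.29 SE). IRF1 averaged 103 ± 5.31 CPM in M1 and 23.5 ± 2.77 CPM in M0 (log2 2.14 ± 0.11 SE). IRF3, which is activated by phosphorylation rather than by its RNA level, did not pass, with 21.4 ± 2.71 CPM in M1 and 25.2 ± 2.73 CPM in M0 (log2 -0.23 ± 0.14 SE, adjusted p = 0.0662).

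Outside M1 the factors were set beside the members in the same libraries. In M0 against Ctrl, IRF1, IRF5 and IRF7 rose and IRF9, IRF2 and IRF3 fell, which is 3 higher and 3 lower of 7 tested, near the 31.1% and 30.6% of all tested genes. STAT2 did not pass there (log2 -0.02 ± 0.18 SE, adjusted p = 0.908 by edgeR). IRF3 averaged 25.2 ± 2.73 CPM in M0 and 46.3 ± 1.47 CPM in Ctrl (log2 -0.88 ± 0.09 SE, adjusted p = 1.68e-06). Of the exonic bases of IRF3, 19.3% lie opposite BCL2L12 on the other strand, and a slightly larger share of those of IRF1 lies opposite AC116366.3 and C5orf56. IRF1 averaged 23.5 ± 2.77 CPM in M0 and 18.2 ± 2.33 CPM in Ctrl (log2 0.36 ± 0.15 SE, adjusted p = 0.0055). In M2 against M0, where 0 members passed, STAT2 rose to 42.4 ± 3.04 CPM in M2, against 27.4, 28.2 and 19.5 CPM in the M0 libraries (log2 0.76 ± 0.18 SE, adjusted p = 7.87e-04). IRF9, the partner of STAT2, was called 4.67-fold higher from few reads, 56 in M2 and 10 in M0 (log2 2.22, adjusted p = 0.00343). IRF1 also rose there (log2 0.57 ± 0.10 SE, adjusted p = 0.00137), which makes 3 of 7 higher and 0 lower, beside 12.5% and 12.7% of all tested genes. IRF3 did not pass (log2 -0.08 ± 0.11 SE, adjusted p = 0.607).

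**Figure D5:**
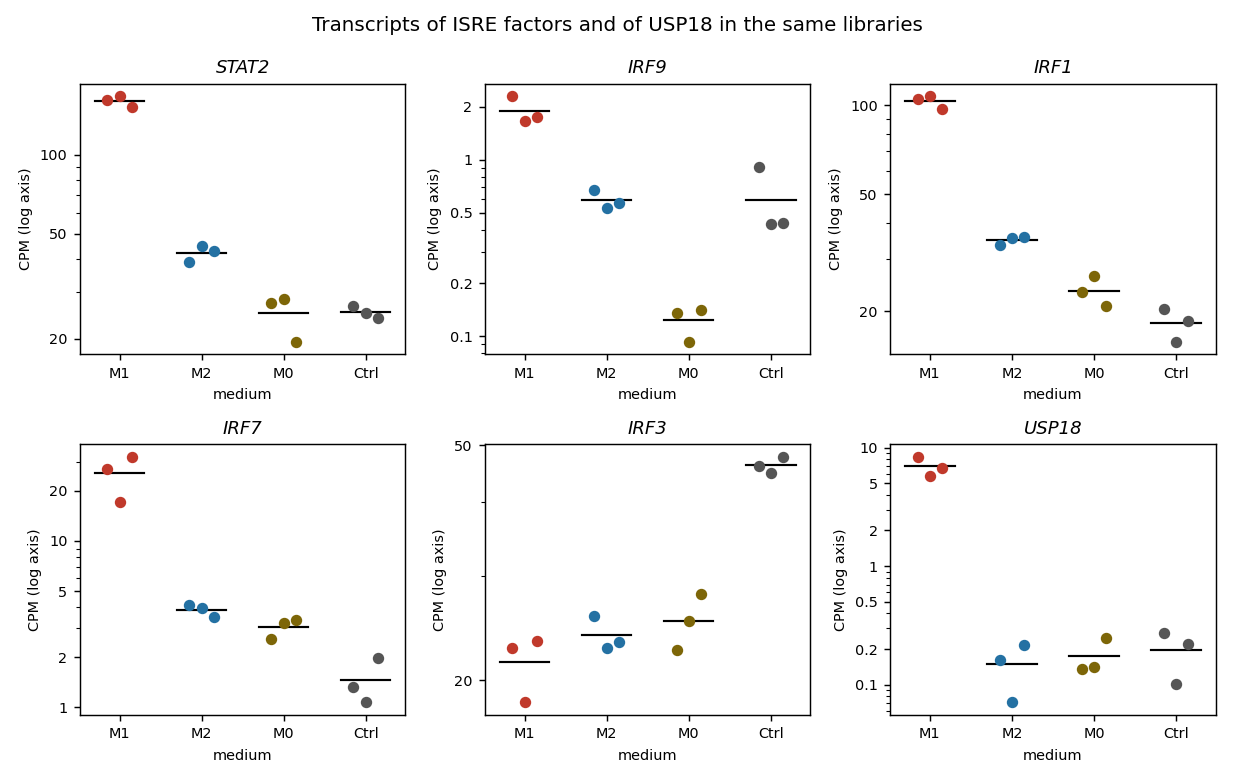
CPM of STAT2, IRF9, IRF1, IRF7, IRF3 and USP18 in every library (points) with the group mean (line) on log axes, by medium. STAT2, IRF9, IRF1, IRF7 and USP18 are highest in M1, IRF1 averages 103 CPM there and 23.5 CPM in M0, and IRF3 is highest in Ctrl.

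Genes of the route from RNA and DNA sensing to IRF3 rose in M1 medium, 10 of 10 higher than in M0 (25.5% of all tested genes), with a median log2 fold change of 0.99. Like the other lists, this one was chosen with earlier results of these data known, so its count is a description and not a test. IFIH1, the sensor MDA5, rose most, with 299.7, 373 and 317 CPM in M1 libraries, against 14.0, 11.6 and 11.95 CPM in M0 libraries (log2 4.71 ± 0.13 SE, adjusted p = 2.44e-14 by edgeR). TICAM1, the adaptor of TLR3, rose least, with 24.4 ± 4.09 CPM in M1 and 19.1 ± 0.986 CPM in M0 (log2 0.36 ± 0.15 SE). In M0 against Ctrl, 2 of the 10 were higher and 3 lower, no more than the 31.1% and 30.6% of all tested genes.

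Of 7 tested feedback genes, 5 were called higher in M1 than in M0 and 0 lower, beside 25.5% and 26.7% of all tested genes. USP18, the protease that removes ISG15 and restrains the type I receptor, averaged 6.97 ± 1.34 CPM in M1. In M0 it averaged 0.173 ± 0.0624 CPM from few reads (log2 5.28, adjusted p = 1.83e-09 by edgeR). PIAS1, an inhibitor of STAT signalling, did not pass, with 31.8 ± 0.570 CPM in M1 and 32.7 ± 1.37 CPM in M0. PTPN2, a phosphatase of JAK kinases, was the other gene that did not pass (log2 0.00 ± 0.06 SE, adjusted p = 0.983).

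Genes that shape the RNA ends read by IFIT proteins moved both ways. Of 9 tested, 3 were higher and 3 lower in M1 than in M0, near the shares of all tested genes (25.5% higher and 26.7% lower). XRN1, the exonuclease that degrades decapped RNA, averaged 100.5 ± 3.86 CPM in M1 and 64.6 ± 3.25 CPM in M0 (log2 0.64 ± 0.05 SE). CMTR1, which methylates the first ribose next to the cap, averaged 68.7 ± 0.741 CPM in M1 and 56.4 ± 2.72 CPM in M0 (log2 0.28 ± 0.04 SE, adjusted p = 0.00367 by edgeR). DXO, which removes incomplete caps, fell by 1.00 ± 0.15 SE on the log2 scale, and 26.0% of its exonic bases are shared with STK19. PCIF1, which methylates an adenosine next to the cap, averaged 36.3 ± 6.62 CPM in M1 and 57.4 ± 2.44 CPM in M0 and fell by 0.66 ± 0.16 SE on the log2 scale. Of 7 tested genes whose proteins bind IFIT proteins, 3 were higher and 2 lower, which these shares do not set apart from other genes. The 3 higher ones, TMEM173, MAVS and TBK1, were already counted among the sensing genes above. TMEM173, the DNA sensing adaptor STING, averaged 37.3 ± 6.22 CPM in M1 and 24.0 ± 1.70 CPM in M0 (log2 0.64 ± 0.16 SE), and HSP90AA1, a cytosolic heat shock protein, fell by 0.42 ± 0.13 SE on the log2 scale.

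For each member, the 3 genes with the most similar profile were found by the root mean square (RMS) difference of centred log2 CPM over the 12 libraries. IFIT1 was nearest to RTP4, OAS3 and USP18 (RMS 0.345, 0.418 and 0.437). OAS3, an oligoadenylate synthetase that activates RNase L, was also lower in M0 (12.7 ± 3.61 CPM) than in Ctrl (29.4 ± 2.92 CPM). RTP4 was lower there too (log2 -1.44, adjusted p = 0.0176 by edgeR), while USP18 did not pass (log2 -0.23, adjusted p = 0.705 by edgeR). All 3 were picked for likeness to IFIT1 over these same libraries, so a shared drop is not separate evidence. IFIT3 was nearest to GBP1P1, IFIH1 and AL356234.2 (RMS 0.193, 0.256 and 0.259). All 129 reads of GBP1P1, a pseudogene of the guanylate-binding proteins, came from M1 libraries, and AL356234.2 had 204 reads in M1, 4 in M2, 2 in M0 and 3 in Ctrl. The likeness of both to IFIT3 therefore depends on the prior count of 2 in log2 CPM and is not read as a shared profile. RTP4, with 492 reads in M1, 8 in M2, 7 in M0 and 26 in Ctrl, and USP18, with 759, 14, 14 and 22 reads in the same order of media, also had few reads outside M1. IFIT2 was nearest to GSAP, AMPD3 and PID1 (RMS 0.0990, 0.156 and 0.213). AMPD3, an AMP deaminase, followed the same order of mean CPM over the media as IFIT2. It had 198 ± 3.97 CPM in M1, 51.8 ± 5.36 in M2, 38.9 ± 2.33 in M0 and 17.4 ± 0.890 in Ctrl. PID1 did not follow that order, with 66.3 ± 0.828 CPM in M2 and 74.0 ± 1.86 in M0. Since these genes were picked for likeness to IFIT2, a shared order is not separate evidence. IFIT5 was nearest to PDE4DIP, MAML2 and GDNF (RMS 0.0942, 0.101 and 0.125), of which MAML2 is a coactivator of Notch signalling and GDNF a neurotrophic factor.

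Among the members themselves, IFIT1 and IFIT3 were the most alike by the RMS difference (0.526), IFIT2 and IFIT5 came next (0.675), and IFIT1 and IFIT5 were the farthest apart (1.70). By Pearson r, which ignores the size of the change, the order differed. IFIT3 and IFIT5 were then the most alike (r = 0.988) and IFIT1 and IFIT2 the least (r = 0.775), with IFIT1 and IFIT5 at 0.942. These values describe 12 libraries whose largest difference is M1 against the rest. With Pearson r, 3 of the 12 named neighbours were again among the 3 nearest.

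Library totals ran from 21788397 to 42921242 counts, and a gene with 0 reads in a library could have up to 3, which is 0.0699 to 0.138 CPM. M2 replicate 2 held reads of 3759 genes seen in no other library, beside 160 to 453 in each of the others. The 24 log2 fold changes of the members kept their calls without both M2 replicate 2 and M0 replicate 3. Of 14 macrophage markers, 2 passed the filter (MSR1 and CD33), while AIF1 had 0 reads and TYROBP 1 read in all. MSR1 was called higher than in Ctrl in M1, M2 and M0, as were 35.2%, 34.1% and 31.1% of all tested genes. CD33 was called lower than in Ctrl in M1, as were 35.0% of all tested genes. Neither passed in a comparison among M1, M2 and M0. The 14 summed to 1.82 to 1.90 CPM in M1 and 1.49 to 2.06 in M2. They summed to 1.65 to 1.82 CPM in M0 and 1.74 to 1.83 in Ctrl. Of 12 melanoma markers, 4 passed (MITF, NES, AXL and SOX9). In M1 against M0, MITF, AXL and SOX9 were called lower and 0 higher (26.7% and 25.5% of all tested genes). In M1 and in M2 against Ctrl, MITF was called higher and NES, AXL and SOX9 lower. The shares of all tested genes were 35.2% higher and 35.0% lower for M1, and 34.1% and 32.4% for M2. The 12 summed to 1558 to 1725 CPM in M1 and 2166 to 2266 in M2. They summed to 2472 to 2579 CPM in M0 and 3119 to 3969 in Ctrl. Among the melanocytic markers, SOX10 and MLANA had 1 read each in all, TYR and S100B had 0, DCT had 4 and PMEL 18, while MITF had 810 reads and averaged 2.18 CPM in M1, 2.16 in M2, 3.10 in M0 and 1.17 in Ctrl.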

How the data were processed

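The members and the gene lists were chosen with earlier results of these data known. Libraries were stranded mRNA sequenced as single reads of 50 nt, per the labels' protocols, in 2 runs not told apart in the files. Tools listed in the submitters' processing notes are STAR 2.5.4b, Bowtie2 2.2.3, Trimmomatic 0.36, FastQC 0.11.7, DESeq2 1.20.0 and R (3.3.3, 3.5.0), with build hg38. How reads were counted, by strand or not, and with which annotation is not given in the sources used here. Raw read counts that the authors deposited cover 58288 gene identifiers. The authors also deposited a variance-stabilized table, on a log2-like scale, used only in alternatives.

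Counts of all 12 libraries were fitted with edgeR 4.0.16 (R 4.3.3) as 4 group means (TMM scaling; filterByExpr with minimum count 10, minimum total 15, leaving 14088 genes) by the quasi-likelihood F test and Benjamini-Hochberg adjustment at 0.05 over all tested genes. CPM values are TMM-scaled. Log2 CPM used a prior count of 2, and each SE is computed outside the fit, from the SD of log2 CPM in both groups of 3 libraries. The prior count narrows the spread at low counts, so no SE is given for IRF9 and USP18. For other genes with few reads the SE may be too small. RPKM divides CPM by the GENCODE release 29 exonic length, which matched 58025 identifiers without version. Floors for genes with 0 reads rest on the library totals of 21788397 to 42921242 counts and cover counting error only. The SD and SE values come from the spread between libraries. Replicate pairs differed beyond sampling noise (chi-square per degree of freedom 3.10 to 28.0).

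Ratios of members were tested by exact permutation over libraries, adjusted over 6 pairs. Named genes were the members, genes within 300 kb, the 3 genes nearest each member, and of each list the genes with the largest and smallest log2 fold change in M1 against M0. STAT2, IRF9, IRF1, IRF3, IRF7, IFNB1 and USP18 were always named, and a further gene of that rule is not reported here. Further genes (PTPN2, CMTR1, PCIF1, IFNG, and list members named in counts) were added after their values were seen. Alternatives were DESeq2 size factors, no filter, DESeq2 1.42.0, limma 3.58.1 on the deposited log2 values, the replicate block, groups fitted alone, each library left out, and, chosen after seeing the data, M2 replicate 2 with M0 replicate 3 left out and the ratio test without M1. The code was tested on simulated data.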

Additional observations from a re-analysis of the deposited data

How the results depend on the processing

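Of the 456 values of the 24 member log2 fold changes under 19 alternatives each, 454 kept their side of the threshold, and 0 called values changed sign. The changes were IFIT2 in M2 against M0 without M0 replicate 1 (0.36, adjusted p = 0.0347, by edgeR) and IFIT5 in M2 against Ctrl with no filter on low counts (0.19, adjusted p = 0.0822, by edgeR). The sign of IFIT1 in M2 against M0, never called, varied between -0.25 and 0.16. Members called in M2 against M0 numbered 0 to 1 when single libraries were left out. All tested genes called there numbered 3553, 1595 to 4210 when single libraries were left out, among them 1595 without M0 replicate 3, 1905 without M2 replicate 3 and 1933 where M2 replicate 2 was dropped. With M2 replicate 2 and M0 replicate 3 both left out they numbered 520. Without the M1 libraries the ratio IFIT3/IFIT5 had an adjusted exact permutation p of 0.357. By Pearson r, 3 of the 12 nearest genes were kept. The cause was not tested.

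The replicate numbers were not taken to pair the libraries in the main fit, since the design names no pairing. Deviations from the group means of same-numbered libraries correlated at -0.0775 to 0.154, above 0.1 in 6 of 18 pairs, against 1 of 36 pairs with other numbers, and 8 of 12 libraries correlated best with their own number, a hint from the data and not from the design. With the replicate block, 7453 genes were called in M1 against M0 (7354 without it) and 3714 in M2 against M0, members called stayed at 4 and 0, and the adjusted exact permutation p of all 6 ratios was 0.0104.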
